A study of Homo sapiens with 12 samples.

Results

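The line expressing the R109K derivative of E2F1 was compared directly with the line expressing wild-type E2F1 (WT), 3 R109K samples against 3 WT samples out of 12 samples in the series. These 6 samples were chosen by their labels alone. All lines were stable derivatives of U2OS Tet-On, a human osteosarcoma cell line, kept under G418 and hygromycin and given doxycycline at 1 µg/ml for 24 hours before RNA was taken. The WT line carries HA-tagged E2F1 in the pTRE2-hyg vector, the R109K line carries HA-tagged E2F1 with lysine in place of the arginine known as R109, and the pTRE line carries the empty vector. The 3 pTRE samples, treated in the same way, are used here only to place the levels. Another line (KK, with R111 and R113 changed to lysine) entered the statistical model but is not described. Each line was raised by selection of transfected cells, and whether a line is a single clone is not given in the sources used here. A difference between the lines could therefore belong to the mutation, to the amount of E2F1 made or to the history of a line, and with 1 line of each kind these cannot be told apart.

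E2F1 binds DNA as a heterodimer with a DP protein and is held in check by the retinoblastoma protein. When released it switches on genes of DNA replication and S phase, and at high levels it also switches on genes of apoptosis. Arginines next to its DNA binding domain are methylated by 2 enzymes with different products. PRMT1 places an asymmetric mark on R109, whereas PRMT5 places symmetric marks on R111 and R113. Lysine keeps the positive charge of arginine but is not a substrate for these enzymes, so that R109K loses the PRMT1 site and keeps both PRMT5 sites.

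The stretch of E2F1 that holds these residues lies in exon 2 of 7 coding exons, on the minus strand of chromosome 20 (GRCh37, chr20:32268133-32268186). It is shown because the lines differ by design in the 1 codon in capitals, that of R109 at 32268157 to 32268159, and the codons of R111 and R113 follow within a few bases. The letters are those of the reference genome, written 5′ to 3′ in the sense of the gene, and cover residues 100 to 117.
E2F1 residues 100 to 117: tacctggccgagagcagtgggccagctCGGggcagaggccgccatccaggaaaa

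Transcripts of E2F1 itself were measured first, since they show how strongly each construct was on. Levels are given as CPM, counts per unit of library size (counts-per-million scale) after TMM normalization. The 3 WT samples stood at 2315, 1650 and 1469 CPM, the 3 R109K samples at 1283, 1260 and 932 CPM, and the 3 pTRE samples at 89.2, 82.9 and 101 CPM. The counts take in the cells' own transcript and that of the construct together. Every R109K sample was below every WT sample and both were far above pTRE. The log2 difference between R109K and WT was -0.65 (SE 0.18, adjusted p = 0.0577 from edgeR's quasi-likelihood test with Benjamini-Hochberg adjustment), and over the alternative settings it lay between -0.77 and -0.42 with adjusted p from 0.0110 to 0.219. A lower E2F1 RNA level in R109K thus accompanies each difference below, and its part in them was not tested.

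The number of reads assigned to genes was alike in 5 of the 6 samples. Reads on genes ranged from 24582045 to 31040903 in these 5 but were 11500537 in WT replicate 2, where 58.7% of the reads lay outside annotated genes against 23.6 to 29.6% in the other 11 samples. Its share of reads on cytosolic ribosomal protein genes was 2.87%, against 4.22 and 4.73% in the other WT samples and 4.38 to 5.94% in R109K. The transcripts with the greatest difference of all were carried by this 1 sample. MIR3648, a microRNA gene within the repeated ribosomal DNA, stood at 3587 CPM in WT replicate 2 and at 13.4 and 16.1 CPM in WT replicates 1 and 3. Its log2 difference of -6.45 became -0.10 without that sample. In all, 74 genes were over 10 times higher in WT replicate 2 than in both other WT samples. Of these 74 genes 0 are among the calls given below, although 5 (MIR663A, MIR3687, MIR3648, ANKRD30BL and LOC284801, picked out after their values were seen) had an adjusted p under 0.05. Results are therefore given with and without WT replicate 2. As for the labelled tissue, COL1A1 and SPARC carried most of the summed level of 16 osteoblast markers, which was 1070 to 1441 CPM in WT, 1627 to 1781 CPM in R109K and 4724 to 5928 CPM in pTRE, while the bone markers IBSP, SP7, BGLAP and COL1A2 were at or near 0 in these samples.

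Of 16625 genes tested, 57 differed between R109K and WT by more than 2-fold at an adjusted p under 0.01, which is 0.343% of the genes. They comprised 41 that were lower in R109K (0.247%) and 16 that were higher (0.0962%), so that 71.9% of the differences were toward a lower level. For all 57, the 3 samples of one line lay wholly above the 3 of the other, which was so for 27.1% of all genes tested. The median size was 2.62-fold. At an adjusted p under 0.05 and any size, 561 genes differed (3.37%), 430 lower (2.59%) and 131 higher (0.788%), and 411 of the 561 were within 2-fold. In bulk RNA, fewer cells with a transcript and less of it per cell cannot be told apart.

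**Figure D1:**
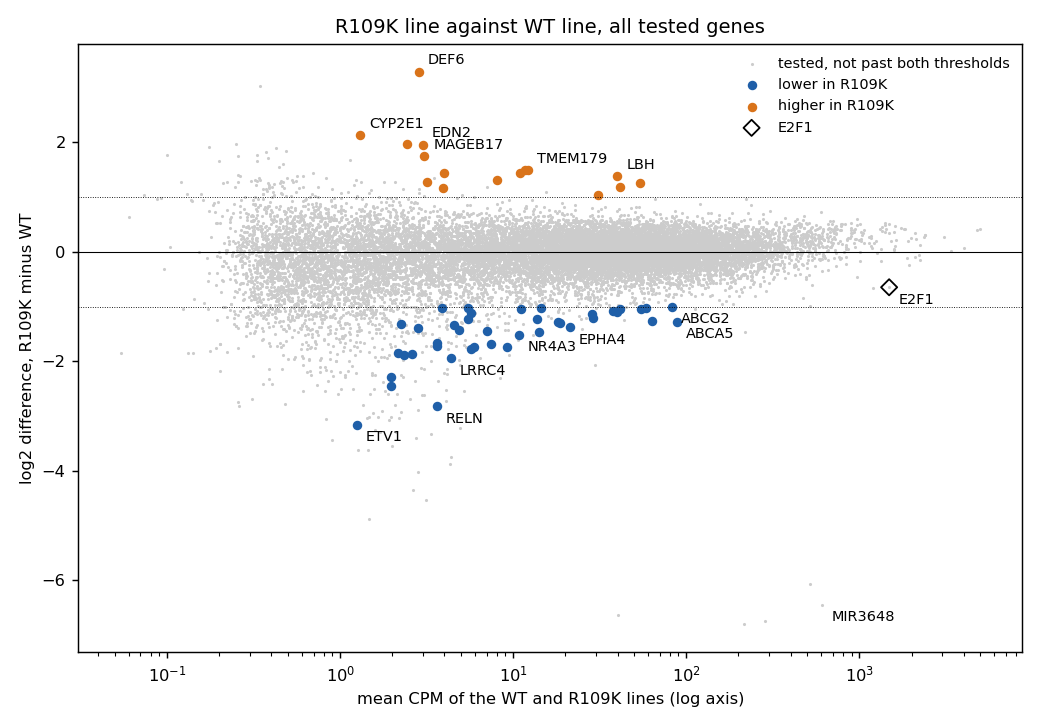
Mean level of each tested gene over the WT and R109K lines (CPM, log axis) against its log2 difference, R109K minus WT, with dotted lines at 2-fold. The 41 transcripts called lower are blue and the 16 called higher orange, E2F1 is the open diamond, and the grey points near the lower edge, such as MIR3648, are carried by WT replicate 2.

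How firmly these calls stand depends on the samples. Without WT replicate 2, 49 transcripts passed (0.291% of 16823 tested), 38 lower and 11 higher, and 41 of the 57 were among them. At an adjusted p under 0.05 and any size, 369 genes (2.19%) then differed, 296 lower (1.76%) and 73 higher (0.434%). The remaining 16 all kept their direction with an adjusted p of at most 0.0215 and a log2 size of at least 0.84. Of these, 4 (JMY, HIVEP3, MAST4 and FZD2) were lost because their size came below 2-fold and not through their p-value. In contrast, a fit of the 6 samples alone, which then estimate the spread without the other lines, gave 0 calls (3078 genes at an unadjusted p under 0.05). Leaving WT replicate 2 out of that fit gave 54 calls. Leaving out WT replicate 1 or R109K replicate 1, 2 or 3 left 4, 7, 3 and 3 calls, whereas leaving out WT replicate 3 gave 157. All 57 kept their direction in each of these fits.

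**Figure D2:**
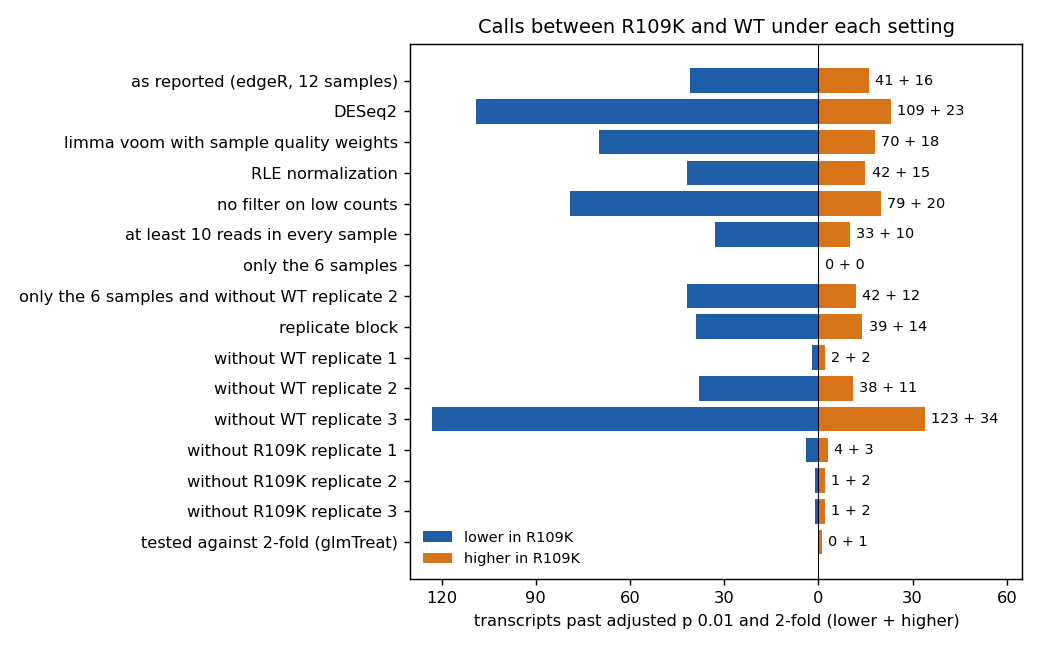
Number of transcripts past an adjusted p of 0.01 and 2-fold (horizontal axis) under each setting, lower in R109K to the left in blue and higher to the right in orange. The number is 57 as reported, 49 without WT replicate 2, 0 with only the 6 samples and between 3 and 157 as single samples are left out.

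The transcripts lower in R109K were mostly ones that stood higher in WT than in pTRE. In 38 of the 41, every WT sample was above every pTRE sample, which was so for 25.2% of all genes tested. Calls of this direction favour a high level in WT, so that nothing further is read from this number. In 31 of the 38 every R109K sample was also above every pTRE sample, so that R109K took an intermediate place, in 4 R109K overlapped with pTRE and in 3 it lay wholly below. By line means, R109K lay between pTRE and WT for 33 of the 41, where it had covered 4.77 to 47.7% of the distance from pTRE to WT (median 27.2%). Since the calls required R109K to be more than 2-fold below WT, this share had to be under 50%. Both lines are placed against the same 3 pTRE samples. Within WT, replicate 3 was the lowest for 28 of the 41 transcripts and replicate 2 the highest for 19.

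Genes listed for growth factor signalling through ERK held some of the greatest differences. Fibroblast growth factors (FGFs) bind receptor tyrosine kinases (FGFRs) that act through RAS and ERK on ETS-family transcription factors, while Sprouty and SPRED proteins dampen the signal. Of 29 tested genes of this group, 7 were lower and 2 higher in R109K at an adjusted p under 0.05 (24.1 and 6.90%, against 2.59 and 0.788% of all genes), with 20 not passing, and the median log2 difference was -0.30 against -0.01 over all genes. Without WT replicate 2 the numbers were again 7 and 2, of 30 tested, with FGF3 in place of SPRED3 among the lower. These are 23.3 and 6.67%, against 1.76 and 0.434% of all genes. This and the other gene lists were written with earlier results of these data known. The study had already named ETV1, FGF4 and LRRC4 from these data, so the shares of lists that hold them are not an independent result.

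ETV1, an ETS factor that responds to FGF and ERK signals, showed the greatest fall of any called transcript. It stood at 1.78, 1.77 and 3.18 CPM in WT and at 0.357, 0.218 and 0.164 CPM in R109K (log2 difference -3.15, SE 0.40, adjusted p = 0.00259 from edgeR). In pTRE it stood at 0.991, 0.988 and 0.588 CPM, so that all WT samples were above and all R109K samples below the empty vector line. FGF4, a secreted ligand, was all but silent in pTRE (at most 0.0826 CPM) and stood at 7.16, 4.58 and 4.99 CPM in WT and 2.07, 1.71 and 1.31 CPM in R109K (log2 difference -1.72, SE 0.28, adjusted p = 0.00517). Unlike ETV1, FGF4 remained above pTRE in every R109K sample.

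Other ligands and receptors of the pathway differed less. FGF5, a ligand, was at 35.3 to 44.6 CPM in WT and 24.4 to 24.7 CPM in R109K (log2 difference -0.67, SE 0.14, adjusted p = 0.0180). The receptors FGFR3 and FGFR2 were lower by a similar size (-0.66 and -0.61, adjusted p = 0.0212 and 0.0220), as was the inhibitor SPRED3 (-0.50, adjusted p = 0.0282), and the ligand FGF9 fell by 1.21 on the log2 scale (adjusted p = 0.0258). These 4 were picked out after their values were seen. Both members that were higher belong to other branches of the family. FGF13, an intracellular relative that binds sodium channels rather than receptors, stood at 2.07, 1.69 and 1.77 CPM in WT and 4.70, 4.22 and 4.59 CPM in R109K (log2 difference 1.28, SE 0.20, adjusted p = 0.00412), the latter overlapping with the 3.57 to 4.52 CPM of pTRE. FGF21, an endocrine ligand also picked out after its values were seen, was higher by 1.28 (adjusted p = 0.0233). An antisense gene, FGF13-AS1, overlaps exons of FGF13, and whether the counting used the strand is not given in the sources used here.

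Immediate early genes, which growth factor and calcium signals switch on within minutes, lay on the same side. Of 25 tested, 5 were lower and 0 higher in R109K at an adjusted p under 0.05 (20% lower, against 2.59% of all genes). The median log2 difference was -0.25. Without WT replicate 2 the number was 4 (16% lower, against 1.76% of all genes), with a median of -0.34. NR4A3, an orphan nuclear receptor and the 1 member past both thresholds, stood at 17.5, 17.3 and 13.2 CPM in WT, 5.93, 6.10 and 4.67 CPM in R109K and 0.918 to 2.11 CPM in pTRE (log2 difference -1.51, SE 0.22, adjusted p = 0.00346). Its R109K samples lay between those of the other lines without overlap.

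FOS and FOSB, subunits of the AP-1 factor, varied more from sample to sample. FOS stood at 52.4, 33.0 and 22.9 CPM in WT and 16.9, 16.0 and 8.11 CPM in R109K (log2 difference -1.40, adjusted p = 0.0246), and FOSB fell by 1.69 on the log2 scale (adjusted p = 0.0206). EGR1, a zinc finger factor, was at 445, 321 and 196 CPM in WT and 152, 115 and 83.3 CPM in R109K (log2 difference -1.46, adjusted p = 0.0274), whereas pTRE spanned 86.3 to 205 CPM. Of the R109K samples of EGR1, replicates 1 and 2 thus lay in the range of pTRE and replicate 3 below it. In both lines FOS and EGR1 declined in the order of replicates 1, 2 and 3. With the replicate number as a block, 6 of the 25 immediate early genes were lower at an adjusted p under 0.05 and 3 were called. Of all genes, 2.51% were lower and 0.319% were called in that fit. EGR2, picked out after its values were seen, fell by 1.81 (adjusted p = 0.0414, and 0.0946 without WT replicate 2).

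Genes of synaptic adhesion and axon guidance gave 5 of the 41 lower transcripts (0.247% of all tested genes were called lower). U2OS is no neuron, and many genes of this group are used outside the nervous system. Of 80 tested, 9 were lower and 0 higher at an adjusted p under 0.05 (11.2% lower, against 2.59% of all genes). The median log2 difference was -0.15. Without WT replicate 2, 7 of 81 were lower (8.64%, against 1.76% of all genes) and the median was -0.06. Of a separate list of 10 neuronal markers, the summed level was 114 to 154 CPM in WT, 169 to 188 CPM in R109K and 204 to 243 CPM in pTRE. RBFOX3, a splicing factor of neurons, was higher in R109K (log2 difference 0.79, adjusted p = 0.0142). It was the 1 of 9 tested markers past an adjusted p of 0.05. Of these 9, 5 had a log2 difference above 0 and 4 below, with a median of 0.08. The part of these markers in the result was not tested. RELN, a large secreted glycoprotein that guides migrating neurons, stood at 6.84, 8.59 and 3.61 CPM in WT, 1.04, 0.981 and 0.614 CPM in R109K and at most 0.147 CPM in pTRE (log2 difference -2.82, SE 0.36, adjusted p = 0.00259). LRRC4, a postsynaptic adhesion protein that binds netrin-G, was at 6.66, 10.8 and 3.29 CPM in WT and 1.98, 1.49 and 1.80 CPM in R109K (log2 difference -1.94, SE 0.33, adjusted p = 0.00684). For LRRC4 the highest WT value was that of replicate 2, and without it the difference was -1.50 (adjusted p = 0.00863).

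Receptors of the same group were lower too. EPHA4, an ephrin receptor, stood at 31.2, 30.3 and 30.5 CPM in WT and 12.3, 10.1 and 13.0 CPM in R109K, against 4.86 to 7.06 CPM in pTRE (log2 difference -1.38, SE 0.20, adjusted p = 0.00370). SHISA7, an auxiliary subunit of GABA receptors, differed by -1.78 and CBLN2, a secreted organiser of synapses, by -1.42 on the log2 scale (adjusted p = 0.00521 and 0.00904). UNC5B, a netrin receptor, fell by 0.91 (adjusted p = 0.00303), which is within 2-fold.

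Ion channel and transmitter receptor genes went both ways. The list held glutamate and GABA receptors, calcium channels and some related proteins. Of 45 tested, 4 were lower and 1 higher in R109K at an adjusted p under 0.05, with a median of -0.17. These are 8.89 and 2.22%, against 2.59 and 0.788% of all genes. Without WT replicate 2, 3 of 46 were lower and 1 higher, with a median of -0.11. These are 6.52 and 2.17%, against 1.76 and 0.434% of all genes in that fit. The one higher was KCNIP1, a calcium-binding subunit of potassium channels, which stood at 1.57, 2.49 and 2.39 CPM in WT and 5.54, 7.30 and 4.46 CPM in R109K (log2 difference 1.45, SE 0.25, adjusted p = 0.00684). The WT samples of KCNIP1 overlapped with the 1.49 to 1.80 CPM of pTRE and the R109K samples did not. GABBR2, a subunit of the metabotropic GABA receptor, was at 30.2 to 48.7 CPM in WT and 18.3 to 23.8 CPM in R109K (log2 difference -0.97, adjusted p = 0.00819), NOS1, the neuronal nitric oxide synthase, fell by 1.03 (adjusted p = 0.0129), and CAMK2B, a calcium-dependent kinase, fell by 0.75 (adjusted p = 0.0220).

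**Figure D3:**
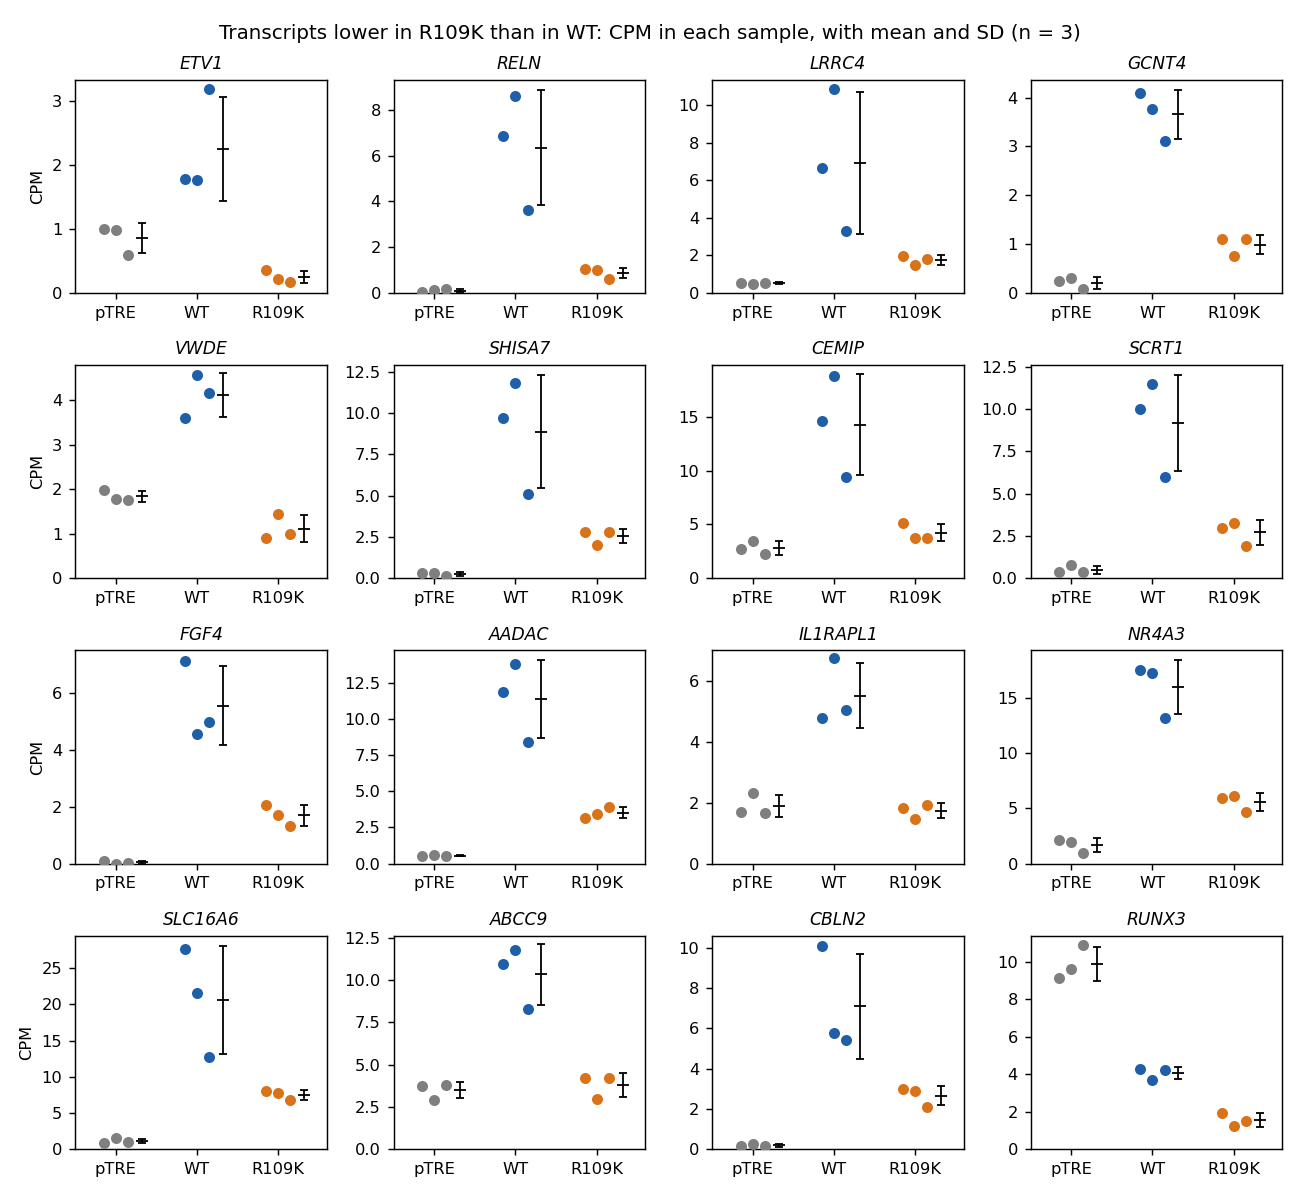
CPM in each of the 3 samples of the pTRE, WT and R109K lines (points, each panel with its own axis from 0), with the mean and SD beside them (n = 3), for ETV1 and the 15 lower transcripts of greatest size with a mean count of at least 50. R109K lies below WT without overlap in every panel, above pTRE in panels such as RELN and FGF4, and below pTRE in those of ETV1, VWDE and RUNX3.

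Among the other lower transcripts of greatest size, several encode secreted or surface proteins and enzymes. VWDE, an extracellular protein, stood at 3.60, 4.58 and 4.16 CPM in WT and 0.908, 1.45 and 0.983 CPM in R109K (log2 difference -1.87, SE 0.25, adjusted p = 0.00275). As for ETV1, its pTRE values of 1.76 to 1.98 CPM lay below every WT sample and above every R109K sample. CEMIP, which takes part in the breakdown of hyaluronan, was at 14.6, 18.8 and 9.40 CPM in WT and 5.12, 3.78 and 3.73 CPM in R109K (log2 difference -1.74, SE 0.25, adjusted p = 0.00312). Its R109K samples were all above the 2.24 to 3.50 CPM of pTRE, by a small margin.

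AADAC, a lipid-hydrolysing enzyme of the endoplasmic reticulum, stood at 11.9, 13.8 and 8.46 CPM in WT and 3.18, 3.45 and 3.93 CPM in R109K (log2 difference -1.68, SE 0.19, adjusted p = 0.00134). GCNT4, an enzyme that branches O-glycans, fell by 1.88 and SCRT1, a neuronal zinc finger repressor, fell by 1.73 on the log2 scale (adjusted p = 0.00597 and 0.00467). IL1RAPL1, a synaptic member of the interleukin-1 receptor family, was at 4.77 to 6.75 CPM in WT and 1.45 to 1.92 CPM in R109K, the latter overlapping with pTRE (log2 difference -1.66, adjusted p = 0.00275). ABCC9, a regulatory subunit of potassium channels, showed the same placing, with 8.31 to 11.8 CPM in WT and 2.98 to 4.22 CPM in R109K against 2.93 to 3.78 CPM in pTRE. SLC16A6, of the monocarboxylate transporter family, had a log2 difference of -1.46 with all samples and -1.43 without WT replicate 2, where its adjusted p of 0.0140 missed the threshold. Exons of SLC16A6 and SCRT1 overlap genes on the other strand (ARSG and SLC52A2).

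RUNX3, a runt-domain transcription factor, and BMP3, a ligand that opposes other bone morphogenetic proteins, differed from the rest in that both lines were below pTRE. RUNX3 stood at 9.13 to 10.9 CPM in pTRE, 3.69 to 4.27 CPM in WT and 1.20 to 1.95 CPM in R109K (log2 difference -1.39, SE 0.19, adjusted p = 0.00303). For BMP3 the corresponding ranges were 13.1 to 14.7, 6.11 to 9.05 and 2.58 to 4.02 CPM (log2 difference -1.23, adjusted p = 0.00904, and 0.0141 without WT replicate 2). For these 2 transcripts R109K was thus farther from the empty vector line than WT was.

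A few of the remaining called transcripts are of interest for what they encode and were picked out after their values were seen. ABCG2, a drug efflux pump, stood at 141, 94.4 and 94.9 CPM in WT and 60.8, 53.6 and 50.3 CPM in R109K, against 4.29 to 4.70 CPM in pTRE (log2 difference -1.01, SE 0.16, adjusted p = 0.00448). NLRP3, the sensor of an inflammasome, was steady within each line, at 7.27 to 7.47 CPM in WT and 3.34 to 3.77 CPM in R109K (log2 difference -1.02, adjusted p = 0.00609). FA2H, which hydroxylates fatty acids, was at 16.3 to 21.2 CPM in WT and 7.17 to 8.88 CPM in R109K (log2 difference -1.22, adjusted p = 0.00399). All 3 were at a lower level in pTRE than in any R109K sample.

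IKZF1, a zinc finger factor of lymphoid cells, stood at 17.7 to 31.2 CPM in WT, 8.86 to 13.1 CPM in R109K and 0.882 to 1.14 CPM in pTRE (log2 difference -1.28, adjusted p = 0.00521). Since its product belongs to leukocytes in the body, a list of 10 leukocyte markers was examined. Their summed level was 16.2 to 17.0 CPM in WT, 12.4 to 13.5 CPM in R109K and 9.73 to 10.7 CPM in pTRE. TYROBP was at 0 in all 9 samples of these lines and PTPRC at most at 0.506 CPM in WT and R109K. ITGAM, an integrin subunit, was at 3.65 to 5.06 CPM in WT and 1.33 to 1.93 CPM in R109K. It was the 1 of 6 tested markers past an adjusted p of 0.05, where 2.59% of all genes were lower. Of these 6, 1 had a log2 difference above 0 and 5 below. CORO1A, the marker of highest level, overlapped between the lines, at 6.91 to 8.98 CPM in WT and 7.78 to 9.85 CPM in R109K.

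An E2F site was looked for at the start of the called genes. The 8 letters TTTGGCGC, TTTCCCGC, TTTGCCGC or TTTCGCGC, on either strand, were searched from 250 bases before to 50 after the start of the canonical transcript. They were found in 4.81% of 15667 promoters of tested genes, in 1 of 40 promoters of the lower transcripts (2.5%) and in 0 of 16 of the higher ones. Among genes at an adjusted p under 0.05 the shares were 4.57% of 416 lower and 7.69% of 130 higher. The share among the lower genes was thus near that of all genes. The single match was in IKZF1 (GRCh37, plus strand), whose 250 bases upstream are shown with the match in capitals. It is read here from the other strand and begins 133 bases before the start. Such a match is a description of the letters and not of binding.
IKZF1 upstream chr7:50344062-50344311: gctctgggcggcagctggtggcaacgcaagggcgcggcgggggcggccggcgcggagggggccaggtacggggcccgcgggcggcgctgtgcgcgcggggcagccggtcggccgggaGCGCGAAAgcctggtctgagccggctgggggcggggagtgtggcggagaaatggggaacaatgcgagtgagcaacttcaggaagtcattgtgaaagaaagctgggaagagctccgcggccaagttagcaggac

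The 16 transcripts higher in R109K divided evenly by where pTRE lay. In 8 every WT sample was below every pTRE sample (26.3% of all genes tested), so that R109K was nearer to the empty vector line or overlapped with it. In the other 8 every R109K sample was above every pTRE sample (24.3% of all genes tested). Calls of this direction favour a low level in WT or a high level in R109K, so that nothing further is read from these numbers.

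DEF6, a guanine nucleotide exchange factor, had the greatest rise. It stood at 0.285, 0.642 and 0.687 CPM in WT and at 5.22, 5.34 and 4.87 CPM in R109K (log2 difference 3.29, SE 0.31, adjusted p = 2.48e-04). R109K overlapped with the 3.76 to 5.14 CPM of pTRE, whereas WT was far below. LBH, a transcription cofactor, showed the same placing, with 22.0, 15.8 and 27.8 CPM in WT and 58.1, 53.7 and 61.5 CPM in R109K (log2 difference 1.39, SE 0.19, adjusted p = 0.00275), as did PALM3, a membrane protein of the paralemmin family, and PAGE2B, a cancer-testis gene. PALM3 and PAGE2B were higher by 1.26 and 1.18 with all samples, and without WT replicate 2 by 1.06 and 0.97 (adjusted p = 0.0215 and 0.0158), so that neither was called.

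In contrast, 3 transcripts lay between WT and pTRE without overlap. PDLIM1, a cytoskeletal PDZ and LIM protein, stood at 5.27, 5.22 and 7.12 CPM in WT, 13.8, 16.5 and 17.7 CPM in R109K and 21.3 to 29.5 CPM in pTRE (log2 difference 1.43, SE 0.17, adjusted p = 0.00196). EDN2, a vasoconstrictor peptide of the endothelin family, was at 1.03, 0.964 and 1.59 CPM in WT and 2.92, 5.16 and 6.35 CPM in R109K, against 9.34 to 15.2 CPM in pTRE (log2 difference 1.96, SE 0.35, adjusted p = 0.00904, and 0.0200 without WT replicate 2). FZD2, a receptor for Wnt ligands, was higher by 1.03 (adjusted p = 0.00384) and by 0.96 without WT replicate 2.

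The other 8 transcripts rose above the empty vector line. TMEM179, a membrane protein, stood at 6.52, 5.06 and 7.16 CPM in WT, 17.6, 17.5 and 18.7 CPM in R109K and 5.17 to 6.36 CPM in pTRE (log2 difference 1.50, SE 0.14, adjusted p = 2.48e-04). MEGF6, with EGF-like repeats, was at 4.99 to 7.34 CPM in WT and 14.1 to 21.9 CPM in R109K (log2 difference 1.49, adjusted p = 0.00521), and H19, an imprinted noncoding RNA, at 3.94 to 5.34 and 11.3 to 11.7 CPM (log2 difference 1.31, adjusted p = 0.00330). For these 3 the WT and pTRE samples overlapped and the R109K samples stood apart from both.

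GRPR, the receptor of gastrin-releasing peptide, and MAGEB17, a cancer-testis gene, were the 2 in which all WT samples also exceeded pTRE. MAGEB17 stood at 1.35, 1.53 and 1.34 CPM in WT and 4.38, 4.14 and 5.61 CPM in R109K, against at most 0.532 CPM in pTRE (log2 difference 1.75, SE 0.25, adjusted p = 0.00303). GRPR stood at 0.926, 1.28 and 0.795 CPM in WT and 3.44, 3.38 and 4.71 CPM in R109K (log2 difference 1.98, SE 0.28, adjusted p = 0.00303). CYP2E1, a cytochrome of alcohol metabolism with a mean count under 50, was at 0.402 to 0.542 CPM in WT and 1.94 to 2.22 CPM in R109K (log2 difference 2.14, adjusted p = 0.00307), and it was picked out after its values were seen. Exons of SYCE1 overlap CYP2E1 on the other strand.

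**Figure D4:**
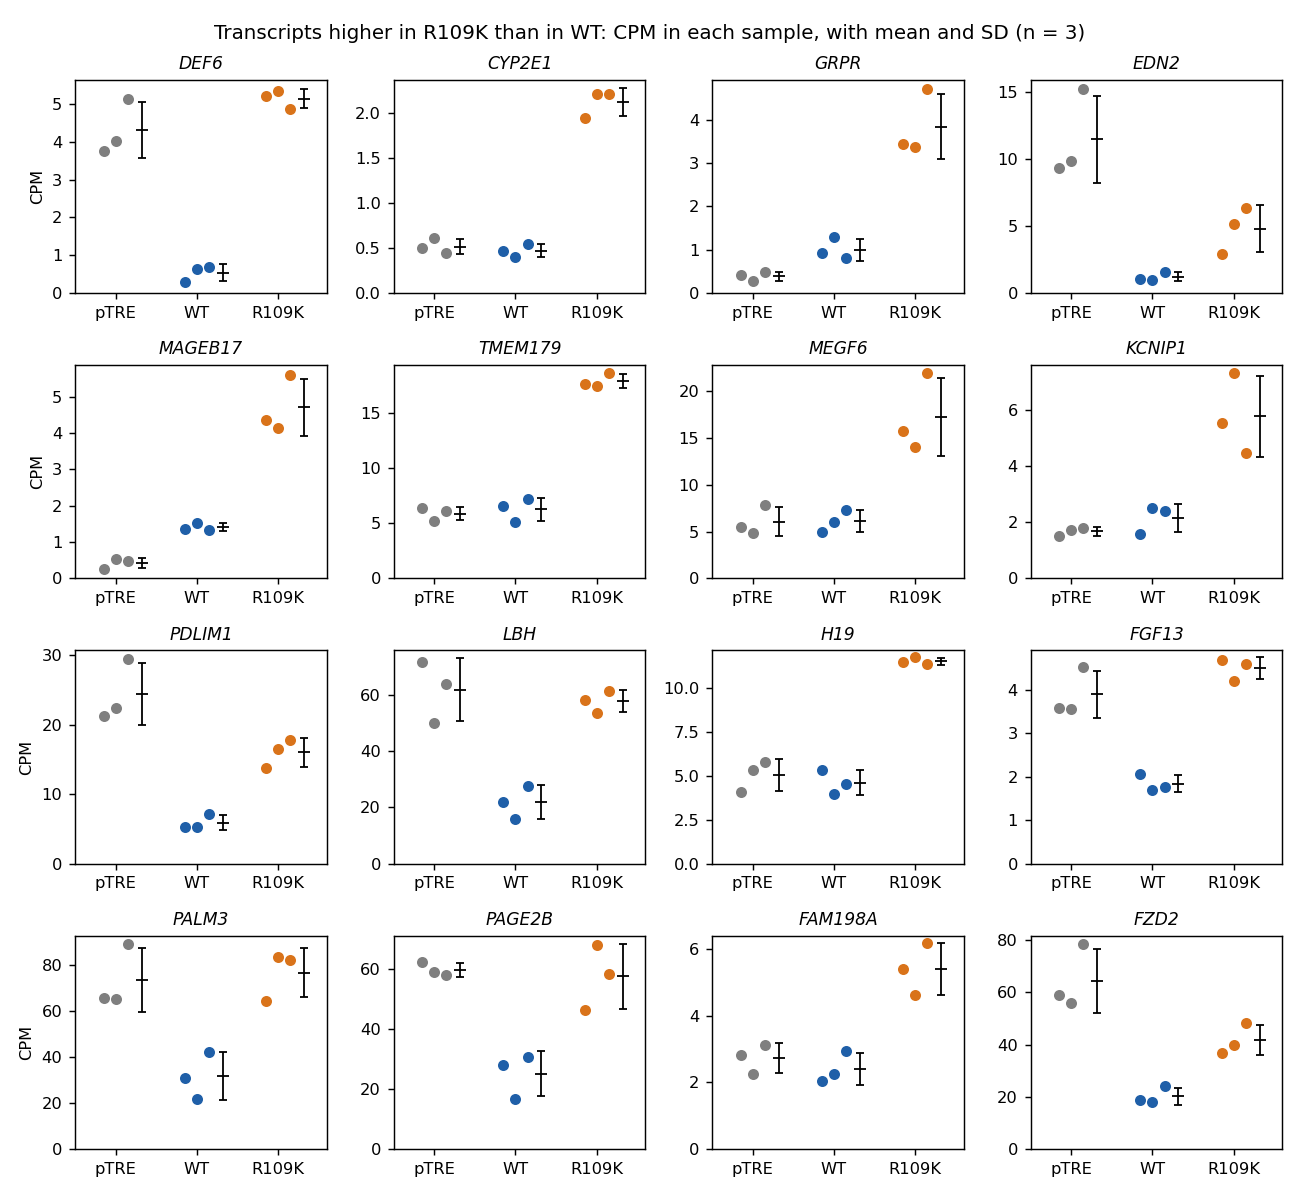
CPM in each of the 3 samples of the pTRE, WT and R109K lines (points, each panel with its own axis from 0), with the mean and SD beside them (n = 3), for the 16 transcripts higher in R109K. In 8 panels, such as DEF6, LBH and EDN2, WT lies below pTRE, and in the other 8, such as TMEM179, GRPR and H19, R109K lies above pTRE.

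In the gene groups for which E2F1 is best known, few or 0 members passed, where 3.37% of all tested genes did, so that counts of 0 in groups of this size are near that background. Of 50 tested genes of replication licensing and the fork, 0 passed an adjusted p of 0.05 in edgeR and 2 did in DESeq2, and the median log2 difference was 0.11. Those with the smallest p-values were CHAF1B, a histone chaperone subunit (-0.35, adjusted p = 0.0715), and POLE, a replicative polymerase (-0.48, adjusted p = 0.0986). Likewise 0 of 17 cyclins, kinases and inhibitors of G1 and S phase, 0 of 11 genes of deoxynucleotide synthesis and 0 of 10 E2F and DP genes passed in edgeR, against 2, 2 and 1 in DESeq2. In DESeq2, 7.46% of all tested genes passed, so these counts have a higher background. The 1 E2F gene was E2F1 itself, whose counts include the construct. TK1, the thymidine kinase, was at 0.60 (adjusted p = 0.0636) and CDKN1C, an inhibitor of cyclin-dependent kinases, at -0.90 (adjusted p = 0.0565). CDKN1C passed without WT replicate 2 (-1.03, adjusted p = 0.0385). These values do not show that the lines were alike in these genes. Of 44 mitotic genes, 36 had a log2 difference above 0 (median 0.18), and 1 passed, the kinesin KIF20A, at 123 to 157 CPM in WT and 188 to 196 CPM in R109K (0.43, adjusted p = 0.0471). KIF20A was at 0.33 without WT replicate 2 (adjusted p = 0.127), and 0 of the 44 then passed.

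Apoptosis genes of the E2F1 response showed a few lower members around a median near 0. Of 35 tested, 4 were lower and 0 higher in R109K at an adjusted p under 0.05 (11.4% lower, against 2.59% of all genes), while the median log2 difference was 0.06. Without WT replicate 2, 3 were lower (8.57%, against 1.76% of all genes). JMY, a cofactor of p53 and p300, stood at 39.7, 47.1 and 30.2 CPM in WT, 20.4, 17.0 and 15.6 CPM in R109K and 11.1 to 12.5 CPM in pTRE (log2 difference -1.13, SE 0.17, adjusted p = 0.00346). HRK, a BH3-only activator of cell death, was at 10.4 to 12.4 CPM in WT, 6.25 to 6.97 CPM in R109K and 2.15 to 3.01 CPM in pTRE (log2 difference -0.82, SE 0.15, adjusted p = 0.00904). The kinase MAP3K5 (-0.92, adjusted p = 0.0164) and the p53 cofactor PPP1R13B (-0.62, adjusted p = 0.0276, and 0.0614 without WT replicate 2) were lower as well, and these 4 genes all took a place between pTRE and WT. Of 23 p53 targets 1 passed (4.35%, where 3.37% of all tested genes did). This was PLK2, which was higher (0.60, adjusted p = 0.0274) and did not pass without WT replicate 2.

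Developmental signalling pathways had members on both sides. In the TGF-beta and BMP group, 3 of 38 were lower and 1 higher at an adjusted p under 0.05 (7.89 and 2.63%). Of all tested genes, 2.59% were lower and 0.788% higher. Besides BMP3, the activin receptor ACVR1B was at 80.4 to 88.3 CPM in WT and 52.5 to 54.8 CPM in R109K (log2 difference -0.65, SE 0.11, adjusted p = 0.00819) and the ligand BMP2 fell by 0.84 (adjusted p = 0.0119), while the ligand TGFB2 was at 87.9 to 114 CPM in WT and 131 to 162 CPM in R109K (0.62, adjusted p = 0.0166). Of 21 Notch genes, 2 were lower (9.52%) and 0 higher. These were HEY1, a target of the pathway, at 88.0, 47.8 and 62.5 CPM in WT and 35.1, 38.2 and 29.6 CPM in R109K (-0.95, adjusted p = 0.0171), and the ligand JAG1 (-0.55, adjusted p = 0.0305). Without WT replicate 2, the sample in which it was lowest among WT, HEY1 passed both thresholds (-1.14, adjusted p = 0.00464). Of 46 Wnt genes, 3 were lower (6.52%) and 1 higher (2.17%). The lower ones were WNT9A, NKD1 and NOTUM (from -1.39 to -0.52, adjusted p from 0.0279 to 0.0497), and the higher one was FZD2. Without WT replicate 2, 1 lower and 1 higher were left.

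Matrix and stress groups gave few members. Of 61 matrix and mesenchymal genes, the laminin chain LAMB3 (-0.62, adjusted p = 0.0177), the repressor ZEB1 (-0.67, adjusted p = 0.0229) and THBS1 (-0.54, adjusted p = 0.0454, and 0.0620 without WT replicate 2) were lower. COL1A1, the collagen chain noted above as an osteoblast marker, stood at 541 to 611 CPM in WT, 786 to 931 CPM in R109K and 3280 to 4079 CPM in pTRE (0.57, adjusted p = 0.0381). It was higher in R109K than in WT and remained far below pTRE, and it did not pass without WT replicate 2. EPAS1, a hypoxia-inducible factor, was lower (-0.72, adjusted p = 0.0143) and was the 1 of 43 hypoxia and glycolysis genes to pass (2.33%). TRIM22 was higher (0.75, adjusted p = 0.00932) and was the 1 of 39 interferon-stimulated genes to pass (2.56%). Both shares are below the 3.37% of all tested genes, so that nothing about these groups is read from them. Of the remaining groups with members past an adjusted p of 0.05, H2AFX (0.72, adjusted p = 0.0384) was the 1 of 34 DNA damage genes, LIN54 (-0.50, adjusted p = 0.0442) the 1 of 9 pocket protein and MuvB genes, and CTH (-0.72, adjusted p = 0.0275) and PSAT1 (0.50, adjusted p = 0.0479) those of 28 amino acid stress genes. These 4 did not pass without WT replicate 2 (adjusted p = 0.108, 0.119, 0.0536 and 0.136). EDN2 was the 1 of 13 endothelin and VEGF genes and MAGEB17 the 1 of 19 listed cancer-testis genes, a list that does not hold PAGE2B.

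**Figure D5:**
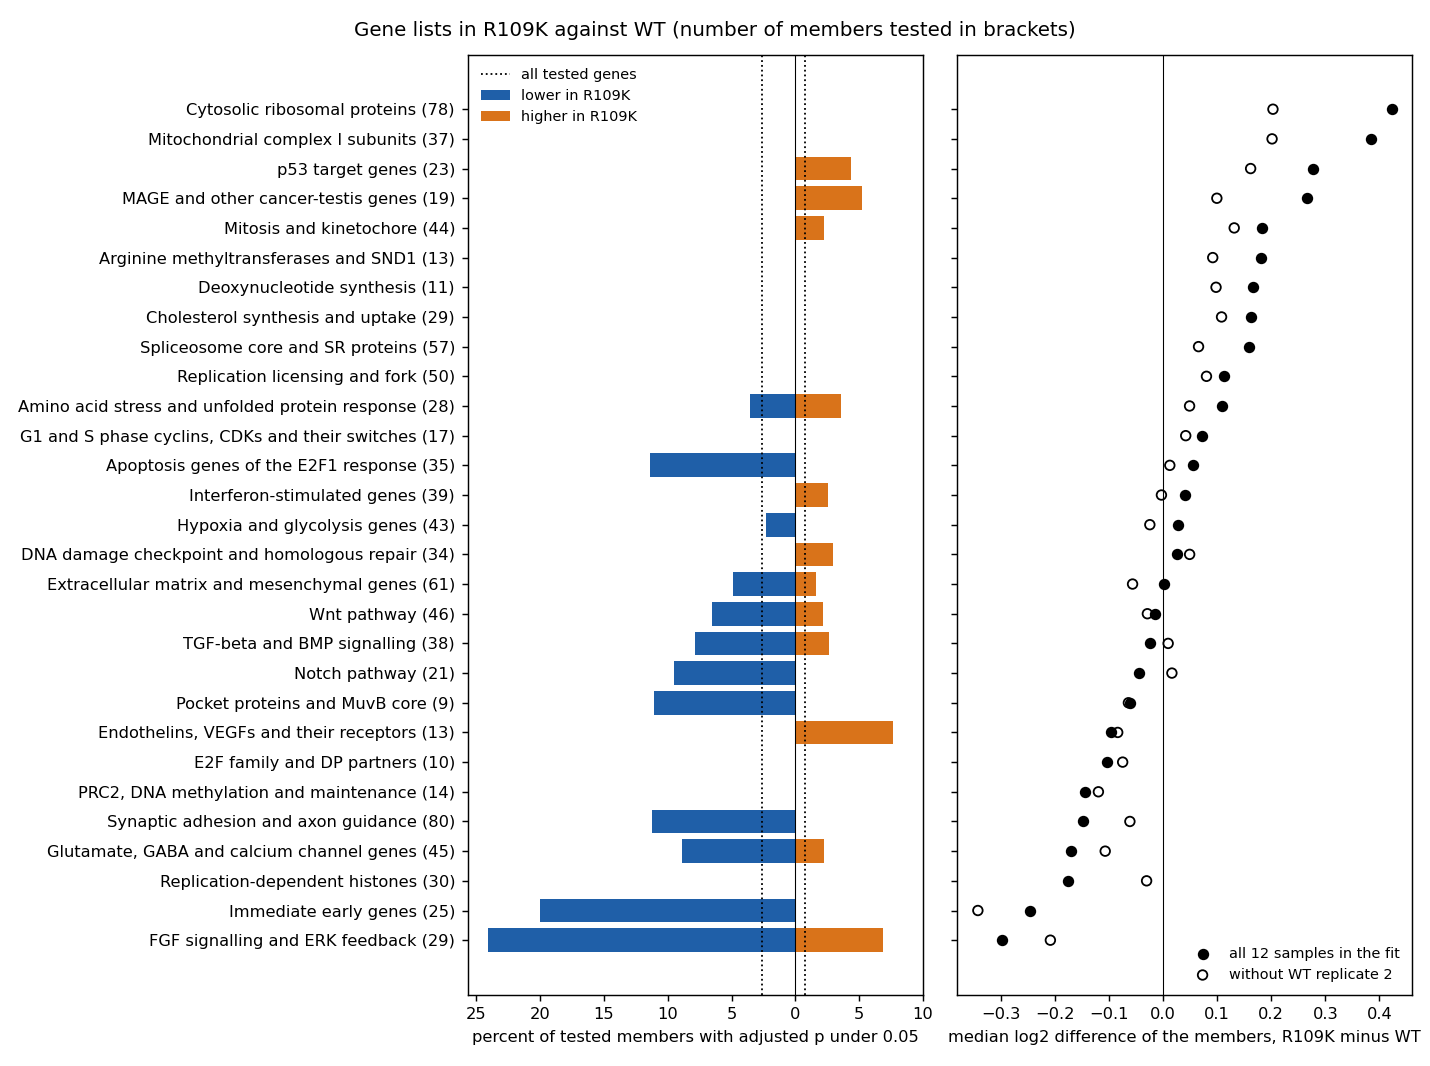
For 29 gene lists, the left panel gives the percent of tested members lower (blue) or higher (orange) in R109K at an adjusted p under 0.05, with dotted lines at the shares of all tested genes (2.59% lower and 0.788% higher), and the right panel the median log2 difference, R109K minus WT, with all 12 samples in the fit (filled) and without WT replicate 2 (open). FGF signalling and immediate early genes have the lowest medians, and the medians of ribosomal protein and complex I genes come nearer to 0 without WT replicate 2.

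Some groups shifted together by little, with 0 members past the test. Of 78 tested cytosolic ribosomal protein genes, 76 had a log2 difference above 0, with a median of 0.42, and of 37 subunits of mitochondrial complex I, 35 did, with a median of 0.38. Without WT replicate 2 both medians were 0.20. Both medians were thus lower without the sample that had the low share of ribosomal protein reads, whose part in the shift was not tested further. In the same way 0 members passed in edgeR among 57 spliceosome genes (median 0.16, and 0.07 without WT replicate 2), 29 cholesterol genes (0.16 and 0.11), 30 replication-dependent histones (-0.18 and -0.03), 14 genes of PRC2 and DNA methylation (-0.14 and -0.12) and 13 arginine methyltransferases with SND1 (0.18 and 0.09).

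The called lower genes also differed from the rest in their length on the chromosome. The median span of 40 called lower genes with a position was 83.0 kb, against 31.5 kb for all tested genes and 35.4 kb for the 16 called higher. Among genes at an adjusted p under 0.05 it was 66.0 kb for the lower and 25.7 kb for the higher. The medians of the called genes were different without WT replicate 2, where the calls are partly other genes. In that fit, the 37 called lower genes with a position had a median span of 45.0 kb and the 11 called higher 53.4 kb. The genes at an adjusted p under 0.05 were not measured again without that sample, and the cause of the difference in span was not tested.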

How the data were processed

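The authors deposited raw counts of reads per gene symbol, 1 set per sample, for 25369 genes. Per the study's methods, poly(A) RNA libraries (a strand-marking kit) were sequenced on a NextSeq, trimmed with TrimGalore 0.4.3 and aligned to hg19 with STAR 2.5.1. The annotation and the strand setting of the counting are not given in the sources used here. The 5 summary lines of each set (reads outside genes, ambiguous and the like, 31.2 to 65.7% of reads being on genes) were left out of totals and tests.

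Counts of all 12 samples were fitted with edgeR 4.0.16 in R 4.3.3 (filterByExpr, TMM, 1 mean per line, quasi-likelihood test), and R109K was contrasted with WT. Calls required a Benjamini-Hochberg adjusted p under 0.01 and more than 2-fold. The replicates are biological. The common dispersion was 0.0239. On simulated counts with 200 genes changed 4-fold among 16470, edgeR recovered 99.5% with 3 false calls. The changed genes were drawn above a floor of expression, and no sample had the outlying profile of WT replicate 2. The median call in the data was 2.62-fold, so this checks the code and does not give the recovery in these data. Over all genes, same-numbered R109K and WT samples did not deviate together (correlations -0.295 to 0.0742), so the main fit used no pairing. Such correlations cannot exclude an effect of replicate number in some genes, such as FOS and EGR1.

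The comparison, its gene lists and the rule for named genes were chosen with earlier results of these data known. Named were E2F1, LRRC4, ETV1, FGF4 and KCNIP1, the 10 highest and 15 lowest called transcripts (those averaging 50 or more reads over the 6 samples whose lines did not overlap), called members of 29 lists and up to 4 further members by p-value (2 where none passed). Alternatives were DESeq2 1.42.0 and limma 3.58.1 (voom with sample weights), RLE scaling, other count filters (none, or at least 10 reads in every sample), the 6 samples alone, the replicate number as a block, each sample left out, glmTreat and other thresholds. Positions and promoters are from GENCODE 44 on GRCh37, matched by symbol for 14875 and by older symbol for 1046 of 16625 tested genes. Python 3.11.15 was used for these.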

Additional observations from a re-analysis of the deposited data

Results flagged for a closer look

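ETV1 (log2 difference between R109K and WT of -3.15), VWDE (-1.87) and SCG5 (-1.02) stood out because the lines lay on opposite sides of the empty vector line, with all 3 WT samples above and all 3 R109K samples below all 3 pTRE samples. SCG5, a chaperone of a prohormone convertase, stood at 4.99 to 5.38 CPM in WT, 2.17 to 2.83 CPM in R109K and 3.14 to 3.99 CPM in pTRE, and its exons overlap ARHGAP11A-SCG5 on the same strand. Against pTRE, the adjusted p from edgeR in ETV1, VWDE and SCG5 was 0.00462, 0.00132 and 0.0201 for WT. For R109K it was 0.00563, 0.0421 and 0.0639, so that the lower side is weak for VWDE and SCG5. SCG5 was not called without WT replicate 2 (adjusted p = 0.0117 from edgeR). Whether the change from pTRE differed between the lines is the same contrast as R109K against WT, so no further test was made.

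WT replicate 2 had 58.7% of its reads outside annotated genes, above the 25.0 to 28.3% of the pTRE samples, and these reads enter no comparison.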

How the results depend on the processing

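With DESeq2, 132 transcripts were called, 23 of them higher and the rest (1.1e+02, to 2 digits) lower, and 1241 genes had an adjusted p under 0.05. With sample quality weights in limma there were 88 calls, 70 of them lower, and 885 such genes. Without a filter on low counts 99 were called and 79 were lower. With at least 10 reads in every sample, 10 were higher. With only the 6 samples there were 0 calls, 0 higher and 0 lower, and 77 genes with an adjusted p under 0.05. Testing against 2-fold with glmTreat left 1 call, DEF6, with 1 higher and 0 lower (207 genes at an unadjusted p under 0.05). Widening the threshold to an adjusted p of 0.05 gave 150 calls (29 higher, 121 lower), and an adjusted p under 0.01 at any size gave 118 (25 higher, 93 lower).

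As each of the 6 samples was left out, calls ranged from 3 to 157, the higher ones from 2 to 34, the lower ones from 1 to 123, and genes with an adjusted p under 0.05 from 76 to 1312. At an adjusted p under 0.05, 326 of the 561 genes also passed without WT replicate 2, 265 of them lower. RLE scaling gave 57 calls, and with the replicate number as a block 53 were called (14 higher, 39 lower). The direction of the 57 transcripts did not turn under any alternative that tested them. The share of calls that were lower was 71.9% as reported, 82.6% with DESeq2, 77.6% without WT replicate 2 and 33.3 to 78.3% as the samples were left out in turn (0 with the 1 call of glmTreat). Transcripts such as ETV1, with a mean count of 30.2 over the 6 samples, are limited by depth. The cause of these differences was not tested.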

Other observations

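Some called transcripts lie close to each other on a chromosome, a feature looked for after the calls were seen. Of pairs less than 1000 kb apart there were 4. On chromosome X, GRPR and MAGEB17, both higher in R109K (log2 differences of 1.98 and 1.75), are separated by 13962 bases. Of the 5 other tested genes within 500 kb of this pair, 0 had an adjusted p under 0.05 in edgeR, and their log2 differences ran from -0.26 to 0.10. On chromosome 1, EDN2, higher by 1.96, and HIVEP3, with a log2 difference of -1.26, are separated by 21681 bases and so differ in direction. The other pairs, SLC16A6 with ABCA5 on chromosome 17 and ANTXR2 with BMP3 on chromosome 4, are 953 and 905 kb apart and were lower in R109K. FGF5 (log2 difference -0.67) lies near ANTXR2 and BMP3. Near SLC16A6 and ABCA5, MAP2K6 was higher (1.39, adjusted p = 0.0437 from edgeR), and ABCA10 (-1.64, adjusted p = 0.0359 from edgeR) has exons that overlap ABCA5 on the same strand, so that their reads may not be separable.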
